A study of Saccharomyces cerevisiae with 16 samples.

Results

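Of the 5787 probes with a value in all 16 samples, 86 (1.49%) form the set described here. Their change from 0 h to 23 h was markedly lower in yeast cells labelled PHO84c than in wild-type (WT) cells. The 86 probes were chosen from these measurements. For each probe the change at 23 h was the value at 23 h minus the mean of replicates 1 and 2 at 0 h of the same strain, and a probe was taken when the PHO84c change minus the WT change lay below -1.25 on the log2 scale, which is 2.38-fold. The 86 probes are out of 6255 on the array table, and they were split by the WT change at 23 h. In 23 the WT change was at least 1 (a smaller rise in PHO84c). In 20 it was -1 or less (a larger fall in PHO84c). In the remaining 43 it lay between, and this class is named PHO84c only. The name stands for a WT change short of 1 in either direction, not for the absence of a WT change. On the opposite side, the PHO84c change was above the WT change by more than the same amount in 150 probes.

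The samples came from 2 strains of Saccharomyces cerevisiae, WT and PHO84c, the second described in the labels as having abundant PHO84c and in the series title as having abundant high-affinity transporters. The labels give no genetic background, construct or clone number for either strain. Phosphate was 500 µM in every sample by the titles and the growth protocol (0.5 mM), whereas the treatment label reads 0.5 M. In that medium cells were taken at 0, 1, 5, 8 and 23 h after dilution from log-phase growth. Each strain had 4 samples at 0 h (both dyes on 2 arrays) and 1 sample at each later time, so that values at 23 h carry no replicate error of their own. The labels name a separate scan file for each strain, and strain and slide cannot be told apart. No culture at another phosphate level was sampled, and growth, time and phosphate cannot be told apart.

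Pho84 is the high-affinity phosphate transporter of the yeast plasma membrane. When phosphate becomes scarce, the inhibitor Pho81 stops the kinase complex Pho80-Pho85, and the transcription factor Pho4 then turns on the PHO genes, among them transporters, secreted phosphatases and enzymes of polyphosphate synthesis. The series title speaks of a later onset of this response in cells with many such transporters.

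The deposited values are log2 ratios that appear to be relative to the 0 h samples of the same strain. Each value therefore describes a change within a strain and not a level between strains. Lower or higher in PHO84c stands here for a lower or higher change than in WT. A gene name below stands for the probe listed under it. Names were listed for 1608 of the 6255 probes and for 22 of the 86, 4 in the smaller-rise class, 5 in the larger-fall class and 13 in the PHO84c-only class. The names carry a limit. The 53 measured probes listed under cytosolic ribosomal protein names, whose genes normally move together, had an SD of 1.53 in the WT change at 23 h against 1.54 over all probes, so the roles given below belong to the listed gene and not with certainty to the RNA that was measured. Probe sequences were not used here, and the probes are given by listed name or number.

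At 23 h the values of the 2 strains ran close to each other over all probes, with a slope of 1.02 for PHO84c against WT and an SD of 0.602 for the strain difference. The PHO84c sample had the wider spread, 1.69 against 1.55 (SD over probes). The strain difference of the 86 probes, which the choice fixed, ran from -4.78 to -1.26 with a median of -1.52. Just inside the limit lay the unnamed probes 1559 and 3615 (-1.26 each), and just outside it TBS1 and probe 10770 (-1.24 each). In the limma fit over all probes, 203 of 6102 (3.33%) were called lower in PHO84c at 23 h, where a call needs a Benjamini-Hochberg adjusted p under 0.05 and at least a 2-fold difference. Among the 86, 80 carried such a call, a count that follows from the choice and is given as a description.

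The class sizes depended on how the 23 h samples were scaled. When the samples of each time point were brought to a common distribution, a setting chosen after the data were seen, 81 probes met the rule, of which 62 were among the 86. The classes then held 42 probes with a smaller rise, 5 with a larger fall and 34 in the PHO84c-only class. All 5 listed members of the larger-fall class left under that setting, together with CBT1, SUL1 and COB, whereas all 4 listed members of the smaller-rise class and 10 of 13 in the PHO84c-only class stayed.

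With each of the 4 Cy3 samples at 0 h left out in turn, 66 of the 86 stayed below the limit every time and 20 crossed it at least once. Those that stayed were 19 of the 23 with a smaller rise, 13 of the 20 with a larger fall and 34 of the 43 PHO84c-only probes. Probe 6436, described here because of its spread, stood at 1.48 and -4.18 in WT replicates 1 and 2 at 0 h. Its later WT values were flat (1.55, 1.69, 1.51 and 1.14), and its PHO84c samples all lay between -0.15 and 0.11. The strain difference at 23 h of -2.49 became -5.32 without WT replicate 1 and 0.34 without WT replicate 2. RPS24B, a protein of the small ribosomal subunit, was at -1.63 and 0.42 in the same samples, and its difference of -1.29 became -0.27 without WT replicate 1 and -2.32 without WT replicate 2. No other member moved by more than 1.5 times, and the other 18 that crossed the limit had differences between -1.39 and -1.26.

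The smaller-rise class held the largest strain differences. Its 23 probes had a median change at 23 h of 3.32 in WT and 1.57 in PHO84c, with ranges of 1.25 to 8.32 and -0.71 to 6.43. In PHO84c 14 of the 23 were at 1 or more and 5 were below 0. Before 23 h the class median in WT was 0.17 at 1 h, 0.44 at 5 h and 0.40 at 8 h, and in PHO84c it was 0.14, 0.11 and 0.12. The class medians therefore moved mainly between 8 and 23 h, an interval with no sample. These are whole-culture RNA measurements, in which fewer cells with a transcript and less of it per cell cannot be told apart.

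GAS4 (probe 14919), whose listed gene encodes a glucanosyltransferase of the spore wall, had the largest difference. In WT its deposited values were 0.20, -0.10, 0.19 and -0.19 in the 4 samples at 0 h, then 1.73, 1.84, 2.21 and 4.21 at 1, 5, 8 and 23 h. In PHO84c they were -0.04, 0.04, -0.06 and 0.05 at 0 h, then 0.16, -0.44, -0.20 and -0.63. Every WT sample after 0 h lay above every 0 h sample, and no PHO84c sample after 0 h exceeded 0.16. The 23 h changes differed by -4.78, or 27.6-fold, and with any single 0 h sample left out GAS4 stayed a member.

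INP51 (probe 14802), listed for a phosphatase that removes the 5-phosphate from a membrane phosphoinositide, followed a late course. Its WT values were 0.17, -0.09, 0.07 and -0.06 at 0 h, then 0.20, 0.64, 0.51 and 5.28. The PHO84c values were -0.02, 0.02, -0.06 and 0.06 at 0 h, then 0.26, 0.44, 0.38 and 1.90. The strains were within 0.16 of each other up to 8 h and differed by -3.34 at 23 h, where both were above all their earlier samples.

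IMD3, an IMP dehydrogenase of guanine nucleotide synthesis, and SWH1, an oxysterol-binding protein homologue, were the other listed members of the class. IMD3 read 0.08, -0.04, -0.02 and 0.03 in WT at 0 h, then 0.76, 0.50, 0.46 and 2.25. In PHO84c it read 0.03, -0.02, -0.02 and 0.03 at 0 h, then 0.02, -0.34, -0.11 and 0.84. The change of IMD3 from 0 h was thus lower in PHO84c at each later time, by -0.72, -0.82, -0.55 and -1.39. The first 3 of these stayed under 2-fold.

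SWH1 stood between -0.01 and 0.03 in WT and between -0.03 and 0.03 in PHO84c at 0 h. It went to 0.18, 0.50, 0.29 and 2.37 in WT and to -0.07, 0.19, 0.12 and 1.02 in PHO84c. Both strains were highest at 23 h, with a difference of -1.34.

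Among unnamed probes of the class, number 10431 had values of 0.06, -0.03, 0.10 and -0.09 in WT at 0 h, then -0.51, 2.98, 1.94 and 2.70. In PHO84c it was at -0.22, 0.18, 0.00 and 0.00 at 0 h, then -0.06, -0.42, -0.42 and -0.73. The strains parted here by 5 h and not at 1 h. Number 1108 reached 7.50 in the WT sample and 4.69 in the PHO84c sample at 23 h.

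The larger-fall class, 20 probes, had a median change at 23 h of -1.79 in WT and -3.28 in PHO84c. Its strain differences spanned a narrow range, -1.94 to -1.27. At 1, 5 and 8 h the class median was 0.06, 0.25 and 0.11 in WT and 0.17, -0.06 and 0.07 in PHO84c.

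MMT1, a putative mitochondrial metal transporter linked to iron, had the largest difference of its listed members (-1.52). Its WT values were 0.13, -0.08, 0.14 and -0.14 at 0 h, then 0.21, 0.90, 0.12 and -2.17. The PHO84c values were -0.25, 0.21, -0.20 and 0.18 at 0 h, then 0.74, 0.82, 0.45 and -3.73. Both strains were above their 0 h samples at 5 h and far below them at 23 h.

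SRP40, a serine-rich nucleolar protein, was at 0.10, -0.05, 0.00 and 0.02 in WT at 0 h, then at -0.02, 0.12, 0.01 and -1.97. In PHO84c it was at -0.09, 0.08, -0.11 and 0.11 at 0 h, then at -0.52, -0.64, -0.30 and -3.36. All 4 later PHO84c samples were below the 0 h range, and in WT the sample at 23 h alone was.

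AMS1, the vacuolar alpha-mannosidase, already stood low early. Its WT values were -0.03, 0.02, -0.04 and 0.04 at 0 h, then -1.12, -0.89, -1.17 and -3.22. The PHO84c values were -0.00, 0.00, 0.08 and -0.05 at 0 h, then -0.51, -0.51, -1.5 and -4.55. AMS1 fell in WT at 1 h (-1.11 ± 0.106 SE, limma adjusted p = 0.000534) and in both strains at 8 h (-1.17, adjusted p = 0.00101, and -1.5, adjusted p = 0.000756).

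YTM1, a factor of large ribosomal subunit assembly, was at 0.24, -0.12, 0.11 and -0.11 in WT at 0 h, then at 0.83, 0.58, 0.61 and -1.75. In PHO84c it was at -0.11, 0.11, -0.13 and 0.12, then at 0.60, 0.46, 0.47 and -3.08. The early samples of YTM1 lay above 0 h in both strains and the 23 h samples below it.

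RPS24B had a wide 0 h range in WT (-1.63, 0.42, -1.60 and 0.71), which spans its next 3 WT values of -1.15, 0.12 and 0.35, and it was at -2.01 at 23 h. In PHO84c its 0 h samples lay between -0.03 and 0.03 and the later ones at -0.12, 0.15, 0.17 and -2.70. The 2 low WT values at 0 h come from both dyes of 1 array. The unnamed probes 12024 and 10859 led the class, with 23 h changes of -1.64 and -1.52 for WT against -3.58 and -3.32 for PHO84c.

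The PHO84c-only class, 43 probes, had a median change at 23 h of -0.23 in WT (range -0.96 to 0.62) and -1.89 in PHO84c (range -3.40 to -0.76). In PHO84c 41 of the 43 were at -1 or less. In WT 15 of the 43 were at -0.5 or less and 4 at 0.5 or more. The median over all probes at 23 h was -0.21 in WT and -0.19 in PHO84c. The split holds the WT changes of this class between -1 and 1, so a WT median near that of all probes is largely set by it. Before 23 h the class medians lay between 0.07 and 0.28 in both strains.

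ORC5, a subunit of the origin recognition complex that marks replication starts, led the listed members with a difference of -2.32. Its 0 h samples in WT were spread, at 0.47, -0.50, 0.71 and -1.29, and the later ones were 0.28, 0.47, -0.46 and -0.29. In PHO84c the 0 h values were -0.03, 0.04, -0.05 and 0.05, followed by -0.57, -0.36, 0.35 and -2.59. All later WT values of ORC5 fell inside the WT range at 0 h.

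MNN10, a subunit of a Golgi mannosyltransferase complex that builds cell wall mannan, was at 0.00, 0.00, -0.02 and 0.02 in WT at 0 h. It went on to 0.19, 0.12, 0.08 and 0.61 in WT. In PHO84c the values were 0.04, -0.04, -0.01 and 0.01, then -0.32, -0.11, 0.02 and -1.36. The 23 h samples of the strains lay on opposite sides of 0.

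NGL1, listed for a putative endonuclease, showed the same opposite signs at 23 h. It was at -0.04, 0.02, 0.03 and 0.07 in WT at 0 h, then at -0.25, 0.16, 0.12 and 0.48. The PHO84c values were 0.03, -0.03, -0.00 and 0.01, then 0.12, 0.15, -0.07 and -1.24.

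PAT1, a factor that promotes mRNA decapping, had a rise in WT at 5 h alone. Its WT values were 0.14, -0.12, 0.18 and -0.14 at 0 h, then -0.54, 1.55, -0.54 and 0.21. In PHO84c they were -0.23, 0.19, -0.26 and 0.21, then -0.43, -0.69, 0.05 and -1.72. The name PAT1 is also an older synonym of GNA1 and PXA2, and which gene was meant is not given in the sources used here.

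VPS25, a subunit of the ESCRT-II complex that sorts membrane proteins for the vacuole, was high in WT at 1 and 5 h. It read -0.02, 0.02, 0.20 and -0.16 in WT at 0 h, then 1.49, 1.79, -0.04 and -0.41. In PHO84c it read -0.04, 0.04, -0.10 and 0.09, then -0.55, -0.46, -0.28 and -1.98. All 4 later PHO84c samples were below the 0 h range.

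The other 8 listed members of the class had strain differences at 23 h between -1.53 and -1.32. HOM2, an enzyme of methionine and threonine synthesis, changed by -0.77 in WT and -2.30 in PHO84c. SYG1, a membrane protein with an SPX domain, was at 0.01 and -1.52, and NDC1, a membrane protein of nuclear pores and spindle pole bodies, at 0.39 and -1.09. TDP1, which repairs DNA linked to topoisomerase, was at 0.34 and -1.07. SGI1, an older name of SVF1, a factor for survival under oxidative stress, was at 0.38 and -1.01. SUL1, a high-affinity sulfate permease and also a synonym of FZF1, was at -0.54 and -1.91. CBT1, a factor for the processing of cytochrome b mRNA, was at -0.88 and -2.34, and COB, cytochrome b itself, at -0.80 and -2.12. The unnamed probes 3394 and 13480 led the class, with WT changes of -0.21 and -0.63 against -3.40 and -2.69 for PHO84c.

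The strain difference before 23 h was not used to choose the members, although it shares the 0 h samples with the rule. At 1, 5 or 8 h, 9 of the 86 (10.5%) carried a called strain difference in the limma fit, against 3.31% of 6014 probes overall. Without PHO84c replicate 2 at 0 h the count was 5 of 86 (5.81%) against 2.54%. At 1 h 2 members were higher in PHO84c and 3 lower, against 1.87% and 0.536% of all probes. At 5 h 0 were higher and 6 lower (background 0.261% and 0.423%), and at 8 h 0 and 2 (0.343% and 0.409%). With no fold limit, 16 of the 86 (18.6%) differed at 1, 5 or 8 h, against 12.5% overall.

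The listed members called were GAS4, VPS25 and PAT1, and the unnamed ones 10431, 1343, 3688, 9256, 4183 and 3298, of which the last 2 were higher in PHO84c at 1 h (4183 by 1.54 and 3298 by 1.18). The last 5 unnamed probes are given here because they were called. For GAS4 the PHO84c change minus the WT change was -1.52 ± 0.212 (SE, log2) at 1 h (limma adjusted p = 0.00976), -2.23 at 5 h (adjusted p = 0.00768) and -2.36 at 8 h (adjusted p = 0.00726). For VPS25 it was -2.04 ± 0.311 at 1 h (limma adjusted p = 0.0126) and -2.25 at 5 h (adjusted p = 0.0278), whereas the 8 h value of -0.23 carried no call (adjusted p = 0.865). For PAT1 it was -2.20 ± 0.287 at 5 h (limma adjusted p = 0.0235), with 0.14 and 0.62 at 1 and 8 h and no call there. The calls of PAT1 and VPS25 at 5 h were lost when single 0 h samples were left out, PAT1 without any 1 of the Cy3 samples and VPS25 without any 1 of the PHO84c samples. Under quantile normalization between the 16 samples no early call was left, although the differences themselves stayed about as large (GAS4 at -1.57, -2.16 and -2.31, VPS25 at -2.03 and -2.19, PAT1 at -2.36).

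As a group, the 86 had a median strain difference of 0.00 at 1 h, -0.19 at 5 h and -0.11 at 8 h. Over all 5787 probes these medians were -0.02, 0.00 and -0.01, with SDs of 0.446, 0.347 and 0.304. The class medians at 5 h were -0.16 (smaller rise, range -3.37 to 0.65), -0.25 (larger fall, range -0.74 to 0.37) and -0.16 (PHO84c only, range -2.25 to 0.61). At 5 h the members' own medians were 0.31 in WT and 0.06 in PHO84c, against 0.01 and 0.00 over all probes. These medians, too, share the 0 h samples with the rule.

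Early calls of members within each strain were counted at each time. These changes subtract the same 0 h samples as the rule. The choice favours probes with low WT and high PHO84c values at 0 h. That alone would raise early WT changes and lower early PHO84c changes, and its part in the counts was not tested. In WT at 5 h, 10 of 86 rose (11.6%) and 0 fell, against 0.917% and 1.32% of 6216 probes. In PHO84c at 5 h, 2 rose and 1 fell, against 0.666% and 0.926% of 6156. At 1 h 4 rose in each strain (background 1.4% in WT and 1.63% in PHO84c), with 1 fall in WT (2.65%) and 0 in PHO84c (1.29%). At 8 h 3 rose and 1 fell in WT (0.738% and 1.3%), and 2 rose and 1 fell in PHO84c (0.359% and 0.702%). At any of the 3 times, 12 members were called in WT (14.0%) and 7 in PHO84c (8.14%), against 5.75% and 3.87% overall. The difference between the counts of the strains was not tested as such.

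Of the 10 members that rose in WT at 5 h, 5 had a listed name. CBT1 rose by 1.64 ± 0.133 in WT (limma adjusted p = 0.000625). Its rise of 0.71 in PHO84c missed only the 2-fold limit, and its strain difference at 5 h (-0.93) carried no call. SUL1 rose by 1.02 in WT (limma adjusted p = 0.00823) and by 1.08 in PHO84c (adjusted p = 0.0077). GAS4 rose by 1.79, VPS25 by 1.79 and PAT1 by 1.54 (limma adjusted p = 0.000655, 0.00273 and 0.00343). SUL1 went on to 1.51 in PHO84c at 8 h (limma adjusted p = 0.00402) before its fall at 23 h. TDP1 rose at 1 h, where the WT change was 1.08 ± 0.086 and the PHO84c change 1.07 (limma adjusted p = 0.000273 and 0.000484).

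The change from 1 h to 8 h shares no sample with the rule. Its strain difference was called higher in PHO84c for 4 of the 86 (4.65%) and lower for 3 (3.49%), against 1.09% and 2.08% of 6068 probes. The median over the 86 was -0.13, against 0.01 over all probes. Probes 10431, 10859, 2513, 4183, 15508 and 12512 were called along with 1 listed member. This was VPS25, at 1.81 ± 0.359 (limma adjusted p = 0.0303), from a fall in WT after 5 h, and this call was lost without any 1 of the PHO84c samples at 0 h. From 1 h to 5 h, a comparison added after the data were seen and not tested, the median strain difference of the members was -0.21, against 0.02 over all probes, and from 5 h to 8 h it was 0.15, against -0.01.

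Relatives of the leading listed genes were set beside them at 23 h. The families were chosen with the members known, and the members' own calls follow from the rule. Several probes given below without a call missed only the 2-fold limit, among them SNF8, MNN11, INP54 and PHO2. GAS5, the other listed glucanosyltransferase, differed by 0.09 ± 0.197 (limma adjusted p = 0.767) beside -4.78 for GAS4. Among 4 listed phosphoinositide phosphatases, INP53 was higher in PHO84c by 1.10 ± 0.211 (limma adjusted p = 0.00933), and INP52 and INP54 stood at 0.59 and 0.67 without a call, beside -3.34 for INP51. Of 9 tested mannosyltransferase probes, 2 were called higher (MNN1 at 1.19 and OCH1 at 1.13), against 4.7% of all probes, and MNN10 was the 1 called lower. MNN4 and YUR1 stood at -0.50 and -0.39 without a call. MNN11, MNN9 and HOC1, whose products share a complex with Mnn10, stood at 0.86, 0.22 and -0.02.

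In the remaining families the members stood beside a few other listed probes. The ESCRT probes SNF8, VPS24 and DID4 stood at -0.92, -0.64 and -0.23 without a call, beside -1.56 for VPS25, and the median of the 4 was -0.78. Of 6 probes listed under mRNA decapping and deadenylation, PAT1 and NGL1 were the 2 called lower, against 3.33% of all probes. The other 4 ran from -0.44 to 0.67. The place of these 2 in the family is uncertain, since the name PAT1 is ambiguous and NGL1 is listed for a putative endonuclease. HOM2 was the 1 called of 5 in methionine and threonine synthesis, where the other 4 ran from -0.10 to 0.53. MMT1 was 1 of 6 among metal carriers, where the others ran from -0.64 (MRS4) to 0.39 (SMF2). NDC1 was 1 of 6 among nuclear pore and spindle pole probes, where the others ran from -0.28 (NBP1) to 0.45 (NUP192). Over all probes with a value in every sample, 1.49% were members. RPS24B was the 1 member among 54 ribosomal protein probes, whose strain difference had a median of -0.12 and an SD of 0.483, against 0.604 over all probes.

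Of 20 PHO regulon genes looked for, 6 had a listed probe, and none of these was a member, against 1.49% of probes with all values. Of the 5 with a value, 0 were called higher and 1 was called lower in PHO84c at 23 h, against 4.7% and 3.33% of all probes. So few probes do not describe the regulon. The median of the 5 was -0.60 against -0.00 over all probes. The call was GIT1, the glycerophosphoinositol permease, which at -1.20 ± 0.149 (limma adjusted p = 0.00263) fell short of the limit of -1.25. PHM7, at -0.99 (limma adjusted p = 0.00366), was just short of 2-fold, and HOR2, VTC4 and PHO8 stood at -0.60, -0.00 and 0.30 without a call. Among 6 listed probes for SPX domain proteins and phosphate signalling, SYG1 was lower and KCS1, an inositol hexakisphosphate kinase, was higher (1.29 ± 0.161, limma adjusted p = 0.00262). The other 4, PHO2, PHO80, PHO87 and PHO88, stood between -0.66 and 0.30 without a call.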

How the data were processed

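RNA of 16 samples was measured on Agilent dual-colour arrays, and images were read with SpotReader, per the labels' protocols. The deposited table holds log2 ratios, where the base and the reference are inferred: taken out of the log, the 2 samples of each 0 h pair (same strain and dye) had a mean of 1.00. The labels used here do not give the background correction or the normalization. Between 6125 and 6231 probes had a value in a sample, and the number of arrays limits the precision. The members and gene lists were chosen with earlier results of these data known.

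Early changes were fitted over all probes with limma 3.58.1 in R 4.3.3 (lmFit, eBayes) with a mean per strain and time, a dye term per strain and the array as random block (correlation 0.761), leaving 4 residual degrees of freedom. The script was tested on simulated data. Each contrast was set against the Cy3 samples at 0 h, and lone later samples were assumed to vary like the 0 h samples. Whether separate cultures gave the 0 h samples is not labelled, so p-values measure a spread that may be technical. No p is given for a member at 23 h. By the naming rule, every listed member is named, up to 5 per class in every sample and 2 unnamed probes per class. All 22 listed names of members were found as symbols or synonyms in the R64 reference table. The planned search of promoters for motifs was not run. Alternatives were median centring, quantile normalization, single 0 h samples left out, other dye and block terms, other baselines and limits. There were 0 columns of other samples.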

Additional observations from a re-analysis of the deposited data

Results flagged for a closer look

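The strain difference of 9 members was called at 1, 5 or 8 h and that of 7 for the change from 1 h to 8 h, by a test of the difference itself in the limma fit. GAS4 differed by -1.52 at 1 h, -2.23 at 5 h and -2.36 at 8 h. VPS25 differed by -2.04 at 1 h, by -2.25 at 5 h and by 1.81 for the change from 1 h to 8 h. PAT1 differed by -2.20 at 5 h. Probe 10431 differed by -3.37 at 5 h (limma adjusted p = 0.00768), by -2.33 at 8 h (adjusted p = 0.0258) and by -2.81 for the change from 1 h to 8 h. Probe 10859 differed by 1.43 for the change from 1 h to 8 h (limma adjusted p = 0.0279). Leaving out WT replicate 1 or 2 ended the call of probe 10431 at 5 h, any 1 WT sample at 0 h ended its call at 8 h, and any 1 of the Cy3 samples ended that of probe 10859. At 1 h probes 4183 and 3298 differed by 1.54 and 1.18 and probe 3688 by -1.24. At 5 h probes 1343 and 9256 differed by -1.64 and -1.05. For the change from 1 h to 8 h probes 15508 and 12512 differed by 1.41 and 1.53, and probes 2513 and 4183 by -1.27 and -1.48. The calls of 1343, 3688 and 9256 were lost without PHO84c replicate 2, and those of 1343 and 9256 also without PHO84c replicate 1. That of 9256 was further lost without any 1 of WT replicates 1 and 2 and PHO84c replicates 3 and 4. By Dixon's 95% limit no 0 h sample stood apart from its group of 4 (39 members given by name or number, 78 groups tested). The check could hardly mark a sample, so nothing is drawn from it. The 2 samples of a 0 h pair are centred on their own mean, and both dyes of an array repeat its deviation. Probe 6436, at 1.48 and -4.18 in WT replicates 1 and 2, was not marked either.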

How the results depend on the processing

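Quantile normalization between the 16 samples gives all of them 1 common distribution, which narrows the 23 h samples and widens the 0 h samples. It left 0 members, 0 in each class and 0 early calls in either strain or between them. Limits of -1 and -1.5 gave 222 and 44 members. These were 44 and 15 with a smaller rise, 70 and 7 with a larger fall and 108 and 22 in the PHO84c-only class. Quantile normalization within each time point, chosen after seeing the data, gave 42 with a smaller rise and 5 with a larger fall. With no fold limit, 16 members differed between strains at 1, 5 or 8 h, 14 in the change from 1 h to 8 h, 42 changed in WT and 39 in PHO84c, against 9, 7, 12 and 7 with it. The shares of all probes with no fold limit were 12.5%, 8.27%, 37.6% and 42.5%. With single 0 h samples left out, members numbered 81 to 95, with 23 to 27, 16 to 22 and 38 to 52 in the 3 classes, early strain differences 5 to 10, those from 1 h to 8 h 5 to 8, and changes 12 to 13 in WT and 7 in PHO84c. Over all probes, early strain differences were called for 2.54% to 3.31% in these settings. Replicates 3 and 4 do not enter the rule. Slide position shared by the strains as a replicate block gave 11 early strain differences among the members, against 3.39% of all probes. It also gave 8 from 1 h to 8 h, 13 in WT and 7 in PHO84c. For counts other than early strain differences, the share of all probes under these settings is not given here. Deviations of same-numbered 0 h samples correlated between the strains at -0.24 (Cy3) and -0.21 (Cy5). The 2 deviations of a pair mirror each other, so the sign depends on which numbers are matched. What the samples share between the strains was not tested. Of the members given by name or number, probe 6436 alone turned direction in these settings, from -5.32 without WT replicate 1 to 0.34 without WT replicate 2 at 23 h. The cause of these shifts was not tested.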

Other observations

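Members were spread unevenly over the probe numbers. In 4 equal blocks of the 5787 probes ordered by number there were 27, 13, 18 and 28 members, or 1.87%, 0.898%, 1.24% and 1.94% of each block. The lowest numbers held 12 of the 23 smaller-rise probes. What the numbering stands for is not given in the sources used here, and the pattern was seen in the data and not tested.

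Another 2 probes met the limit with the 6 values the rule needs and lacked 1 other value. At 23 h probe 13191 had a WT change of 4.51 and a PHO84c change of 1.24. For probe 11800 these changes were -0.60 and -3.56.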
